A study of Mus with 4 samples.

Results

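The 10 genes described here are protein genes of the mitochondrial genome: mt-Nd1, mt-Nd2, mt-Nd4, mt-Nd5 and mt-Nd6 of complex I, mt-Cytb of complex III, mt-Co1, mt-Co2 and mt-Co3 of complex IV, and mt-Atp6 of complex V. They were taken by Ensembl identifier from the deposited table of 54532 genes, and all 10 passed the filter on low counts that left 15510 genes for testing. The reference gene table (RefSeq, assembly GRCm38.p6) lists 13 protein genes on the mitochondrial chromosome (MT), and the other 3 are not analysed here. The study sequenced RNA from liver sinusoidal endothelial cells, the fenestrated cells that line the liver's smallest vessels, of mice that had all received the liver toxin carbon tetrachloride (CCl4). It compared 2 libraries from control mice (CTL; columns CTL1 and CTL2) with 2 libraries from mice lacking Pofut1 in the endothelium (P1KO; columns KO1 and KO3). POFUT1 attaches O-fucose to EGF-like repeats of proteins such as Notch receptors, and the series asks how its endothelial loss acts on endothelial and stellate cells. Strain, age, dose, the allele and driver of the deletion, the control genotype and whether each library stands for its own mouse are not stated in the labels. The labels give the tissue as liver, whereas their extraction text names heart ventricles.

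The mitochondrial genome is a small circle that is read as long transcripts from both strands. These are cut into mRNAs, mostly at tRNAs lying between genes. Its protein genes encode core subunits of the respiratory chain and of ATP synthase, which are completed by many subunits encoded in the nucleus. mt-Nd6 is the only protein gene on the light strand, while the others lie on the heavy strand. Endothelial cells are generally thought to draw much of their ATP from glycolysis, and their mitochondria serve signalling and redox control as well as respiration.

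The libraries held between 17464769 and 17918834 counts. The identifiers could not be paired with symbols beyond the 10 genes, so nuclear subunits of the chain, Pofut1 and markers of endothelium, hepatocytes, heart muscle or any other cell type are not analysed here, and neither the cell type nor the deletion was checked. The spread between libraries was unequal, with a biological coefficient of variation of 3.23% between the CTL and 12.1% between the P1KO libraries. The fit pools these values, so over all genes its p-values rest largely on the closeness of the CTL pair. For mt-Co2, mt-Atp6, mt-Co3 and mt-Nd5 the P1KO libraries were the closer pair on the log2 scale. The margin was small for mt-Co2 (0.054 in P1KO against 0.058 in CTL) and mt-Co3 (0.152 against 0.166). The fit shares its estimate of spread over genes, so the p-values of these genes do not rest on their own pairs alone.

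The 10 genes together took a smaller share of all counts in P1KO. Each CTL library held 1.87%, KO1 held 1.26% and KO3 held 1.41%. Both P1KO libraries lay below both CTL libraries, and the CTL libraries were almost equal. The means were 1.87% ± 0.000638 (SD, n = 2) in CTL and 1.33% ± 0.107 (SD, n = 2) in P1KO, a relative change of -28.7%. With 2 libraries against 2, the exact permutation test (two-sided) cannot give less than p = 0.333, and it gave p = 0.333. The exact binomial 95% interval of the share was 1.86% to 1.88% in CTL1 and 1.40% to 1.41% in KO3, which covers counting error only. The CTL SD is smaller than this counting error, so it is a poor measure of the spread between control libraries. Without mt-Co1, the most abundant of the genes, the share was 0.864% ± 0.00537 in CTL and 0.608% ± 0.0410 in P1KO (SD, n = 2 each), a relative change of -29.6%. A share is relative to all other RNA counted, so an absolute loss of mitochondrial RNA was not measured. In bulk RNA, fewer cells rich in mitochondrial RNA and less mitochondrial RNA per cell also cannot be told apart.

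**Figure D1:**
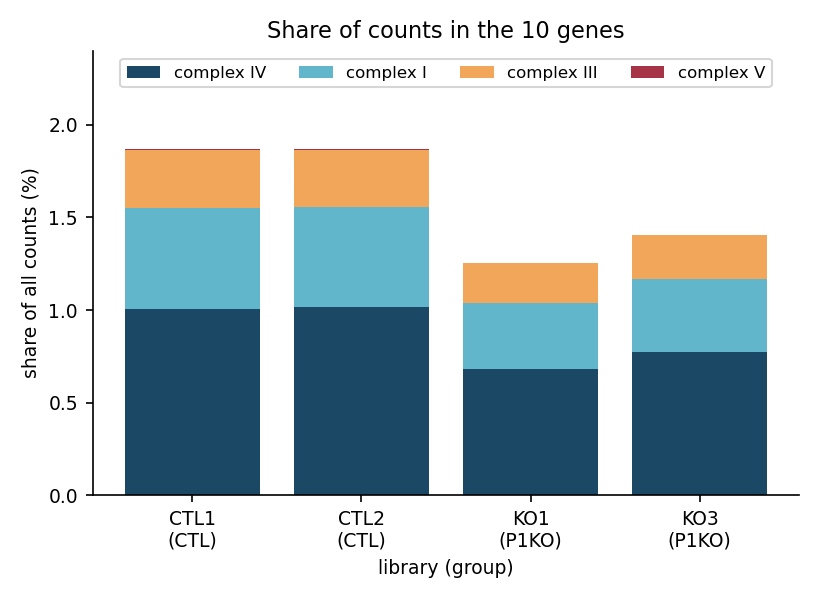
Share of all counts (%, y axis) taken by the 10 genes in each library (x axis), stacked by respiratory chain complex, with complex V too small to see. CTL1 and CTL2 stand at 1.87% each, KO1 at 1.26% and KO3 at 1.41%.

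All 10 genes fell in P1KO and 0 rose (edgeR quasi-likelihood F-test over all 15510 genes, called below an adjusted p of 0.05). Over all tested genes 19.5% were called in either direction and 9.84% were called lower. Abundant genes are called more readily. Of the 267 genes above 500 CPM (counts scaled by library total and TMM), a class with 6 of the 10, 27.7% were called lower. Of the 6867 genes at least as abundant as the scarcest of the 10, a class with all 10, 11.6% were called lower. The smallest fall of the 10 was reached or passed by 22.5% of all tested genes. It was reached or passed by 10.2% of the 6867 and 20.2% of the 267 genes. The median log2 fold change was -0.49 for the 10 genes, -0.01 for all tested genes and 0.03 for the genes above 500 CPM. For all 10 the P1KO and CTL libraries did not overlap, which was also so for 62.6% of the tested genes, and for 32.1% with P1KO below. The genes share 1 genome, and all but mt-Nd6 lie on the heavy strand and are cut from common transcripts. Their joint fall is therefore not 10 separate observations. Without CTL1 the edgeR test called 2 of them, mt-Nd5 and mt-Atp6, and without CTL2 it called only mt-Nd5, as only the P1KO pair then gave a spread. With the CTL libraries summed into 1, it also called only mt-Nd5, and all 10 remained lower in P1KO in each of these fits.

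**Figure D2:**
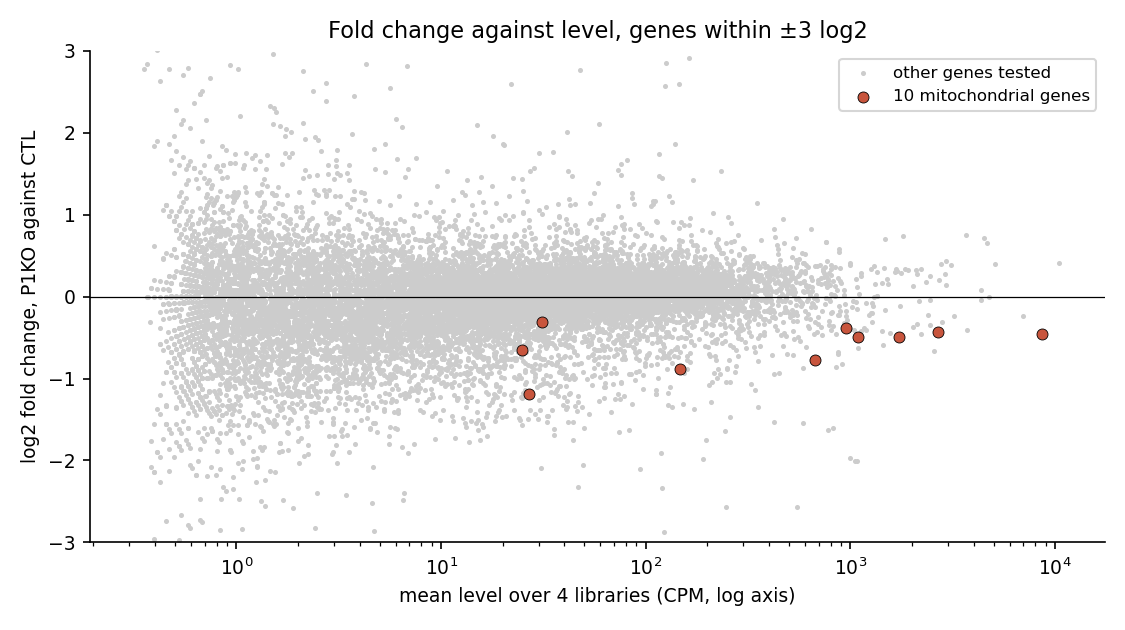
Log2 fold change of P1KO against CTL (y axis) against mean level (CPM, log x axis) for the tested genes, with the 10 mitochondrial genes in red and 49 genes beyond 3 in absolute size not shown. All 10 lie below 0, between -0.31 and -1.18.

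Complex I takes electrons from NADH, and its mitochondrially encoded subunits form the membrane arm that pumps protons. mt-Nd1 (ENSMUSG00000064341, MT positions 2751 to 3707, GRCm38.p6) encodes the subunit where the membrane arm meets the peripheral arm. Its level was 2052 CPM in CTL1 and 2003 in CTL2, as against 1397 in KO1 and 1491 in KO3, with both P1KO libraries low. Its log2 fold change was -0.49 ± 0.05 (SE), 28.8% lower in P1KO (edgeR adjusted p = 0.000797). mt-Nd2 (ENSMUSG00000064345, MT 3914 to 4951), a proton-pumping subunit, stood at 1264 CPM (CTL1) and 1267 CPM (CTL2) in the controls, and at 842 CPM (KO1) and 962 CPM (KO3) in P1KO. The CTL libraries differed by far less than the P1KO libraries, and the groups stood well apart. The log2 fold change was -0.49 ± 0.07 (SE; edgeR adjusted p = 0.00281), close to that of mt-Nd1.

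mt-Nd4 (ENSMUSG00000064363, MT 10167 to 11544), another proton-pumping subunit, had the smallest fall of the complex I genes. The controls held 1074 CPM (CTL1) and 1089 CPM (CTL2), and P1KO held 797 CPM (KO1) and 856 CPM (KO3), a log2 fold change of -0.39 ± 0.05 (SE; edgeR adjusted p = 0.00267). mt-Nd5 (ENSMUSG00000064367, MT 11742 to 13565) encodes the pumping subunit at the far end of the membrane arm. CTL1 was at 828 CPM and CTL2 at 857 CPM, while KO1 was at 496 CPM and KO3 at 492 CPM. Both groups were tight and far apart, and the P1KO libraries, which differed for most of the other genes, were nearly equal here. The log2 fold change was -0.77 ± 0.05 (SE), 41.4% lower in P1KO, with an edgeR adjusted p of 0.000149, the smallest of the 10. This was the only one of the 10 genes called under each of the 14 alternative fits, where its adjusted p was at most 0.0461.

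mt-Nd6 (ENSMUSG00000064368, MT 13552 to 14070), a small membrane subunit, was read from 3372 counts (CTL1) and 3409 counts (CTL2) in the controls, and from 2000 (KO1) and 1674 (KO3) in P1KO. These were 192 CPM for CTL1, 191 CPM for CTL2, 114 CPM for KO1 and 94.0 CPM for KO3. The CTL libraries were alike, and KO3 was the lower of the P1KO libraries, whereas KO3 was above KO1 for 8 of the other 9 genes and level with it for mt-Nd5. The ratio of KO3 to KO1 was 0.828, with an exact binomial 95% interval of 0.775 to 0.884 (counting error only), against 1.11 (1.10 to 1.12) for mt-Co1. The log2 fold change of mt-Nd6 was -0.88 ± 0.09 (SE), 45.8% lower in P1KO (edgeR adjusted p = 0.000913). The library kit named in the labels does not mark strand, so reads of mt-Nd6 and of RNA from the opposite strand cannot be told apart. mt-Nd5 and mt-Nd6 also share 14 bases at their ends.

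mt-Cytb (ENSMUSG00000064370, MT 14145 to 15288) encodes cytochrome b, the only mitochondrially encoded subunit of complex III, which passes electrons from ubiquinol to cytochrome c. The control libraries held 3129 CPM (CTL1) and 3053 CPM (CTL2), and the knockout libraries 2193 CPM (KO1) and 2384 CPM (KO3). Ordered by counts, its row had rank 12 for CTL1 and rank 14 for CTL2, but rank 29 for KO1 and rank 24 for KO3. The log2 fold change was -0.43 ± 0.05 (SE), 1.35-fold higher in CTL (edgeR adjusted p = 0.00152).

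mt-Co1 (ENSMUSG00000064351, MT 5328 to 6872) encodes the catalytic subunit of complex IV, cytochrome c oxidase, which reduces oxygen to water. Its counts were 174935 (CTL1) and 179501 (CTL2) in the controls, and 121374 (KO1) and 136568 (KO3) in P1KO, which made it the row with the most counts in both CTL libraries and the row with rank 2 in both P1KO libraries. It alone took 1.002% of the counts of CTL1 and 1.008% of those of CTL2, but 0.677% for KO1 and 0.770% for KO3. The control levels were 9963 CPM (CTL1) and 10050 CPM (CTL2), and the P1KO levels 6896 CPM (KO1) and 7672 CPM (KO3). The log2 fold change was -0.46 ± 0.05 (SE), 27.2% lower in P1KO (edgeR adjusted p = 0.00137).

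mt-Co2 (ENSMUSG00000064354, MT 7013 to 7696) encodes the complex IV subunit that receives electrons from cytochrome c. It had only 592 counts (33.7 CPM) in CTL1 and 627 counts (35.1 CPM) in CTL2, and 480 counts (27.3 CPM) in KO1 and 504 counts (28.3 CPM) in KO3. The groups did not overlap, and its fall was the smallest of the 10, with a log2 fold change of -0.31 ± 0.08 (SE; edgeR adjusted p = 0.0372). The call was lost in DESeq2 (adjusted p = 0.150), with limma-voom when each group had its own spread (0.0564) and in edgeR without a filter on low counts (0.0822). mt-Co3 (ENSMUSG00000064358, MT 8607 to 9390) encodes a core subunit next to the catalytic one. CTL1 held 28.6 CPM and CTL2 32.1 CPM, whereas KO1 held 18.4 CPM and KO3 20.4 CPM, a log2 fold change of -0.65 ± 0.11 (SE; edgeR adjusted p = 0.00620).

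mt-Atp6 (ENSMUSG00000064357, MT 7927 to 8607) encodes the ATP synthase subunit that forms the proton path beside the rotor. CTL1 held 518 counts (29.5 CPM) and CTL2 807 counts (45.2 CPM), whereas KO1 held 264 counts (15.0 CPM) and KO3 318 counts (17.9 CPM). This was the only one of the 10 genes for which the CTL libraries stood far apart. CTL2 was 1.53 times CTL1 with an exact binomial 95% interval of 1.37 to 1.71 (counting error only), whereas for the other 9 genes this ratio lay between 0.976 and 1.12. The log2 fold change was -1.18 ± 0.20 (SE), with the largest error of the 10 (edgeR adjusted p = 0.00675). It was the largest fall with all 4 libraries and, at -1.46, without CTL1, but without CTL2 it was -0.85, smaller than the -0.89 of mt-Nd6.

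**Figure D3:**
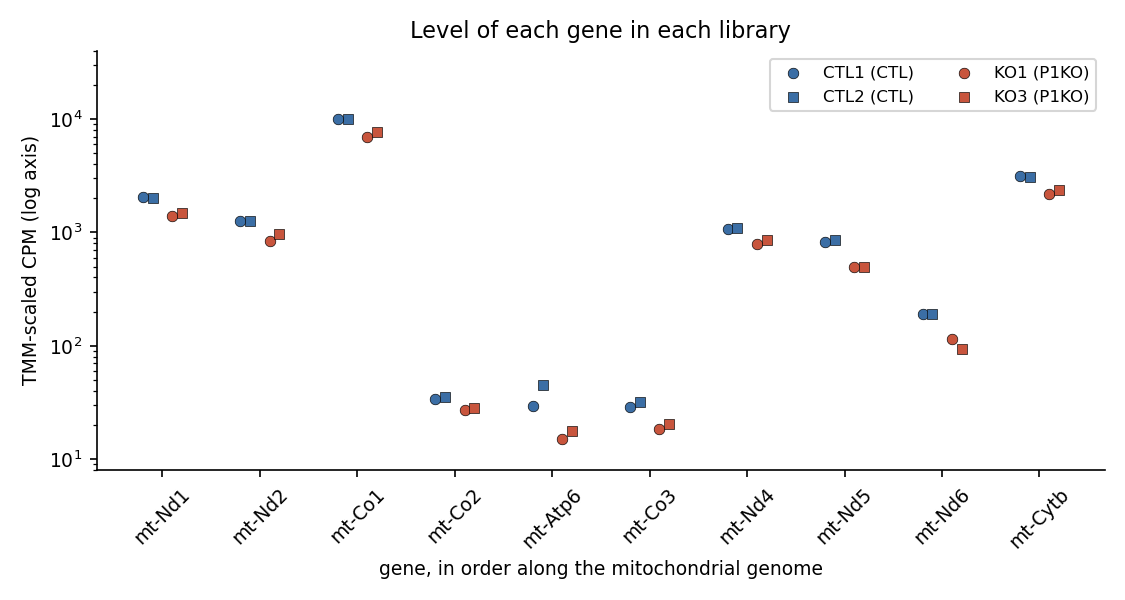
Level of each gene (TMM-scaled CPM, log y axis) in each library, in order along the mitochondrial genome (x axis), with CTL in blue and P1KO in red. For each gene both P1KO points lie below both CTL points, and the CTL points of mt-Atp6, at 29.5 and 45.2 CPM, are the farthest apart within a group.

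**Figure D4:**
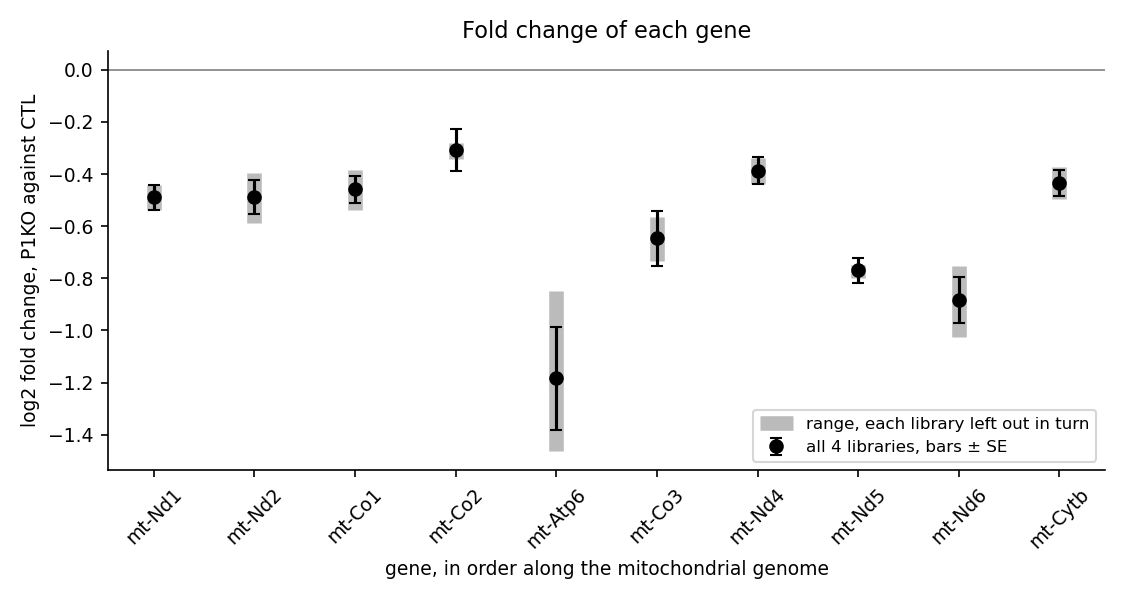
Log2 fold change of P1KO against CTL (y axis) for each gene (x axis) from all 4 libraries with its SE, and in grey the range when each library is left out in turn. mt-Nd5 spans only -0.80 to -0.75, while mt-Atp6 spans -1.46 to -0.85.

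The make-up of the mitochondrial reads was compared next. mt-Co1 made up 53.6% (CTL1) and 54.0% (CTL2) of the counts of the 10 genes in the controls, and 53.9% (KO1) and 54.7% (KO3) in P1KO, with overlapping groups. The complex I genes together made up 29.1% (CTL1) and 29.0% (CTL2) against 28.5% (KO1) and 27.8% (KO3). These ratios do not depend on how libraries are scaled. mt-Nd5 was 4.45% (CTL1) and 4.60% (CTL2) of these counts, against 3.88% (KO1) and 3.51% (KO3). mt-Nd6 was 1.03% (CTL1) and 1.02% (CTL2), against 0.888% (KO1) and 0.671% (KO3). For mt-Nd4 the order was the opposite, with 5.78% (CTL1) and 5.85% (CTL2) against 6.23% (KO1) and 6.11% (KO3). The same was true of mt-Cytb, with 16.8% (CTL1) and 16.4% (CTL2) against 17.1% (KO1) and 17.01% (KO3). Of the 3 scarce genes, mt-Atp6 was 0.159% (CTL1) and 0.243% (CTL2), against 0.117% (KO1) and 0.127% (KO3). mt-Co3 was also lower in both P1KO libraries, with a mean of 0.163% ± 0.0131 in CTL and 0.144% ± 0.00144 in P1KO (SD, n = 2 each). mt-Co2 was higher in both, with means of 0.185% ± 0.00508 and 0.208% ± 0.00790. So mt-Nd5, mt-Nd6, mt-Atp6 and mt-Co3 had lower and mt-Nd4, mt-Cytb and mt-Co2 higher values in both P1KO libraries than in both CTL libraries, while the groups overlapped for mt-Nd1, mt-Nd2 and mt-Co1. The exact permutation test (two-sided) gave its smallest possible p of 0.333 for each of these 7 genes (0.476 adjusted over the 10 genes). This test gives that p to any gene whose groups do not overlap, so it could not call any of these shifts. The percentages of mt-Co2 and mt-Co3 rest on only 323 to 627 counts per library, and their counting error was not worked out. The percentages of the 10 genes share 1 total, so a rise in some forces a fall in others. The 7 shifts are therefore not separate observations. By level, a different measure, the groups did not overlap for 62.6% of all tested genes.

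Levels can be compared between genes only per length, here as CPM per kilobase of the RefSeq gene. In CTL, mt-Co1 was highest at 6477 ± 39.8, followed by mt-Cytb at 2702 ± 47.0, mt-Nd1 at 2119 ± 36.3 and mt-Nd2 at 1220 ± 1.96 (SD, n = 2 each). Then came mt-Nd4 at 785 ± 7.79, mt-Nd5 at 462 ± 11.4 and mt-Nd6 at 369 ± 1.61 CPM per kilobase. These 7 genes stood in the same order in P1KO, from mt-Co1 at 4715 ± 355 to mt-Nd5 at 271 ± 1.38 and mt-Nd6 at 200 ± 26.7, and each pair of neighbours in the order stood apart by more than its SDs in both groups. Far below them were mt-Atp6 at 54.8 ± 16.3, mt-Co2 at 50.3 ± 1.44 and mt-Co3 at 38.7 ± 3.15 in CTL, where mt-Atp6 differed from its neighbour mt-Co2 by less than its SD. In P1KO these 3 were at 24.1 ± 2.97, 40.6 ± 1.08 and 24.7 ± 1.84, and mt-Atp6 and mt-Co3 could not be told apart.

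mt-Co2, mt-Atp6 and mt-Co3 follow each other on the mitochondrial genome, between mt-Co1 and mt-Nd4. Of the counts of the 10 genes they together held 0.494% (CTL1) and 0.603% (CTL2) in the controls, and 0.474% (KO1) and 0.475% (KO3) in P1KO. Mouse chromosome 1 is known to carry a long, nearly identical copy of mitochondrial DNA, and reads that fit both places are often left out of gene counts. In the reference table, the pseudogene Gm10925 (chromosome 1, 24613971 to 24614651) has the 681 bases of mt-Atp6, and Gm10222 (24612404 to 24612700) has the 297 bases of the mitochondrial gene ND4L. The outer ends of this pair lie 2248 bases apart on chromosome 1, against 2247 bases from the start of mt-Atp6 to the end of ND4L on MT, a stretch that also holds mt-Co3. The labels do not say how such reads were counted, and the part of this copy in the low levels was not tested. Levels and fold changes of mt-Co2, mt-Atp6 and mt-Co3 are therefore uncertain. On MT the stretch from mt-Atp6 to ND4L ends at 10173, just past the start of mt-Nd4 at 10167, and mt-Co2 lies outside it. How far the copy reaches on either side was not examined. An effect on the flanking genes mt-Co1 and mt-Nd4 was not tested, so their levels may be uncertain too.

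**Figure D5:**
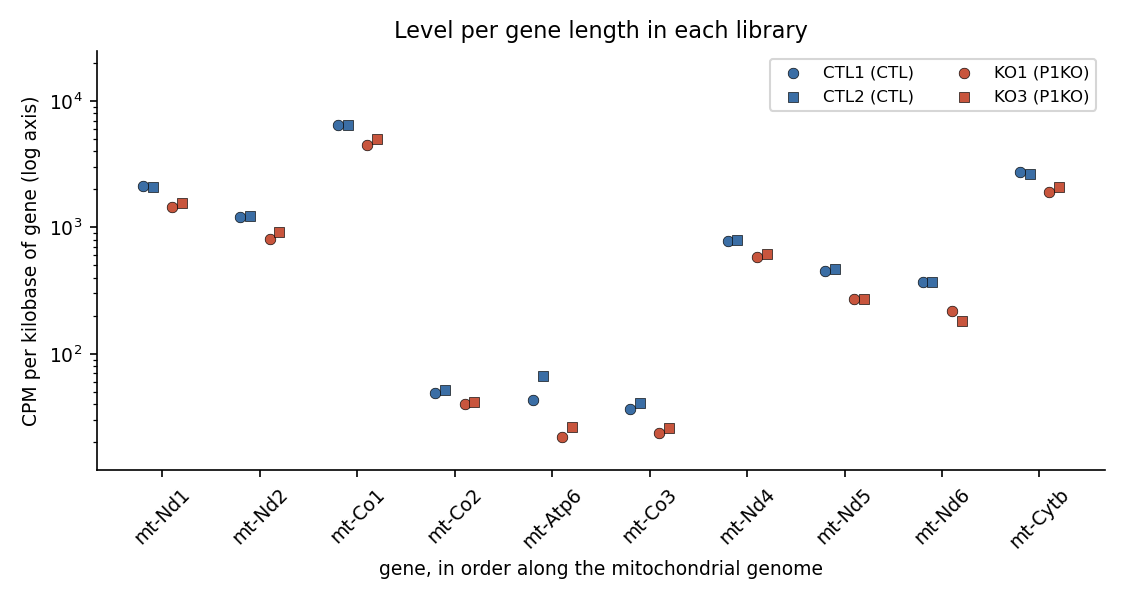
CPM per kilobase of gene (log y axis) in each library, in order along the mitochondrial genome (x axis), with CTL in blue and P1KO in red. mt-Co2, mt-Atp6 and mt-Co3 lie between 22.0 and 66.3 in all libraries, whereas the other 7 genes lie between 181 and 6505.

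The P1KO libraries also differed from each other. KO3 was above KO1 by 0.09 to 0.25 on the log2 scale for mt-Nd1, mt-Nd2, mt-Co1, mt-Nd4, mt-Cytb and mt-Atp6, and the exact binomial 95% intervals of these 6 ratios lay above 1 (counting error only). mt-Nd1 had a log2 ratio to the CTL mean of -0.54 for KO1 and -0.44 for KO3. The median absolute log2 difference over the 10 genes was 0.04 for CTL2 against CTL1 and 0.14 for KO3 against KO1. Over all tested genes it was 0.10 and 0.15, so the P1KO difference is not particular to the 10 genes. The fall of each of the 10 genes was larger than the difference between its P1KO libraries.

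Among the 9468 other rows with a mean of at least 10 CPM, the rows nearest in pattern to the mean of the 10 genes were sought as the smallest root mean square difference of centred log2 CPM over the 4 libraries. The nearest was ENSMUSG00000045294, at 35.4 CPM (CTL1) and 38.1 CPM (CTL2) against 23.4 CPM (KO1) and 24.9 CPM (KO3), with a difference of 0.01. ENSMUSG00000041231 followed with 0.02, at 12.1 CPM (CTL1) and 12.9 CPM (CTL2) against 7.90 CPM (KO1) and 8.20 CPM (KO3). Both lay nearer to the mean than any of the 10 genes did, of which mt-Co3 was nearest at 0.04 and mt-Atp6 farthest at 0.34. With 4 libraries many rows can match a pattern, so this is a description only.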

How the data were processed

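The authors deposited 1 table of raw read counts per Ensembl gene, with 4 columns, all used (0 left out). The submitters' processing notes name featureCounts 1.5.0-p3, HISAT2 2.0.5, fastp and CASAVA, and build mm10. The strand setting, the annotation and the handling of multimapping reads are not stated there. Column KO3 matches no sample title by number and was placed in the P1KO group only. No row of the table names anything but a gene.

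Counts were filtered with filterByExpr, scaled with TMM and tested with edgeR 4.0.16 (R 4.3.3; quasi-likelihood F-test, P1KO against CTL, no covariate, Benjamini-Hochberg over 15510 genes). The SE is the log2 fold change divided by the square root of F. P-values set the difference between groups against the spread between libraries, which is estimated partly from all genes and may be technical. The edgeR fit was tried on simulated data with the same spread in both groups. That simulation does not cover the unequal spread of these libraries. Alternatives were DESeq2 1.42.0, limma 3.58.1, other scalings and filters, summed CTL libraries and each library left out. Cyclic loess was added after seeing the data. The genes and lists were chosen with earlier results of these data known. All 10 members are named, with the nearest rows in pattern, of which only 2 are printed because identifiers carry no symbols. The 23 gene and marker lists fixed by symbol matched 0 identifiers (RefSeq, 49997 genes) and were not used. The 10 members were matched to RefSeq MT genes by name for positions and lengths. No sequences are printed.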

Additional observations from a re-analysis of the deposited data

How the results depend on the processing

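All 10 genes were lower in P1KO under each of the 14 alternatives, and of the 140 gene values 111 stayed on the same side of the threshold and 29 lost their call. Of these 29, 26 came from leaving out CTL1 (8), leaving out CTL2 (9) and summing the CTL libraries (9), and 3 were mt-Co2 in DESeq2, with a separate spread per group and with no filter. The number of the 10 genes called lower was 1 with the CTL libraries summed, and 1 to 10 when each library was left out. Where 1 library of a group remained, its variation was assumed to equal that of the other group. Over all genes, 54 to 2675 were called higher and 66 to 2716 lower when each library was left out, 70 and 82 with the CTL libraries summed, and 810 and 823 with no filter on low counts (the cause was not tested), against 1501 and 1526. The difference in share of counts was -0.54 percentage points, and -0.61 to -0.46 with a library left out. The exact permutation test used for shares cannot go below 0.333 with these libraries. No paired analysis was possible because column KO3 carries a number that is in no sample title, so the groups share only 1 number. Counting all mitochondrially encoded genes was not run, since only the 10 are identified, and scaling without mitochondrial genes left out these 10 only.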
